A study of Mus musculus with 19 samples.

Results

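SOX3 occupancy was described at 9 genes by which Sertoli cells are recognised: Amh, Inha, Inhbb, Dhh, Fshr, Gata4, Wt1, Cldn11 and Trf. These were 9 of 26180 mouse genes with a curated RefSeq transcript, and they were chosen by name, not by a measured value. For each gene the SOX3 ChIP-seq peaks within 2 kb of a transcription start site (TSS), in the gene body and within 50 kb of the gene were taken from the peak list of each replicate. The series named 19 samples, of which 4 were analysed here, a pair of replicates each of ChIP-seq and ChIP-nexus against SOX3. In ChIP-nexus the precipitated fragments are digested by an exonuclease up to the bound protein, which narrows the signal. The other 15 samples, which include inputs and other antibodies, were not analysed here.

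Both groups were testis from mice at postnatal day 7 (P7). The mice were of C57BL/6J background, and the labels gave no genotype or treatment. For transcription factor ChIP, seminiferous tubules came from 3 mice at P7 to P8, freed of the tunica albuginea. The labels gave 2 SOX3 antibodies for each library (SCBT sc-101155 and EMD Millipore AB5772). Nothing in the labels tied a replicate to its own animals, and no group without SOX3 precipitation was analysed here. The tubules hold Sertoli cells beside germ cells, so from these lists alone occupancy in Sertoli cells and occupancy in germ cells cannot be told apart. No expression values were analysed here, so the cell content of the tissue was not checked by markers.

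Sertoli cells are the somatic cells of the seminiferous tubule, and they nurse the germ cells and supply the niche of the spermatogonial stem cells. They signal outward through hormones of the TGF-β superfamily and through Hedgehog, receive follicle-stimulating hormone (FSH) from the pituitary, and seal the tubule with tight junctions. SOX3 is a transcription factor of the SRY-related HMG box family that is known in the testis for its place in undifferentiated spermatogonia (uSPG), the germ cells that include the stem cells. The paper treats SOX3 as specific to uSPG within the testis and reports by immunofluorescence at P7 that uSPG express it. It reads the SOX3 peaks of whole testis as occupancy in uSPG.

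All 9 Sertoli cell genes had a SOX3 peak within 2 kb of a TSS in replicate 1, and all 9 had one in replicate 2. Such a promoter peak was common in these lists: 62.7% of all genes had one in replicate 1, 54.7% in replicate 2 and 52.2% in both, and among the 21000 protein-coding genes 57.9% had one in both. The peak lay over the TSS itself at 9 of 9 genes in replicate 1 and at 7 of 9 in replicate 2, where Cldn11 and Trf were the exceptions. The TSS was covered at 55.3% of all genes in replicate 1 and at 47.0% in replicate 2. With 2 peak lists and no reads, no test between samples could be made, and the counts are given as a description.

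The replicates differed in the number and strength of the peaks called. Replicate 1 held 58351 peaks and replicate 2 held 38832. The median width was 738 bp and 697 bp, and 475 and 73 peaks were wider than 5 kb. One peak of the other replicate covered at least 50% of the length of 25.1% of the peaks in replicate 1 and of 48.4% of those in replicate 2. The q score (−10log10 of the adjusted p-value, above 30 in both lists) was higher in replicate 1 at 9 of 9 Sertoli cell genes and at 95.9% of the 13665 genes with a promoter peak in both lists. Peak strength was therefore compared only within a replicate, as the percentile of a gene's strongest promoter peak among those of all genes with one.

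**Figure D1:**
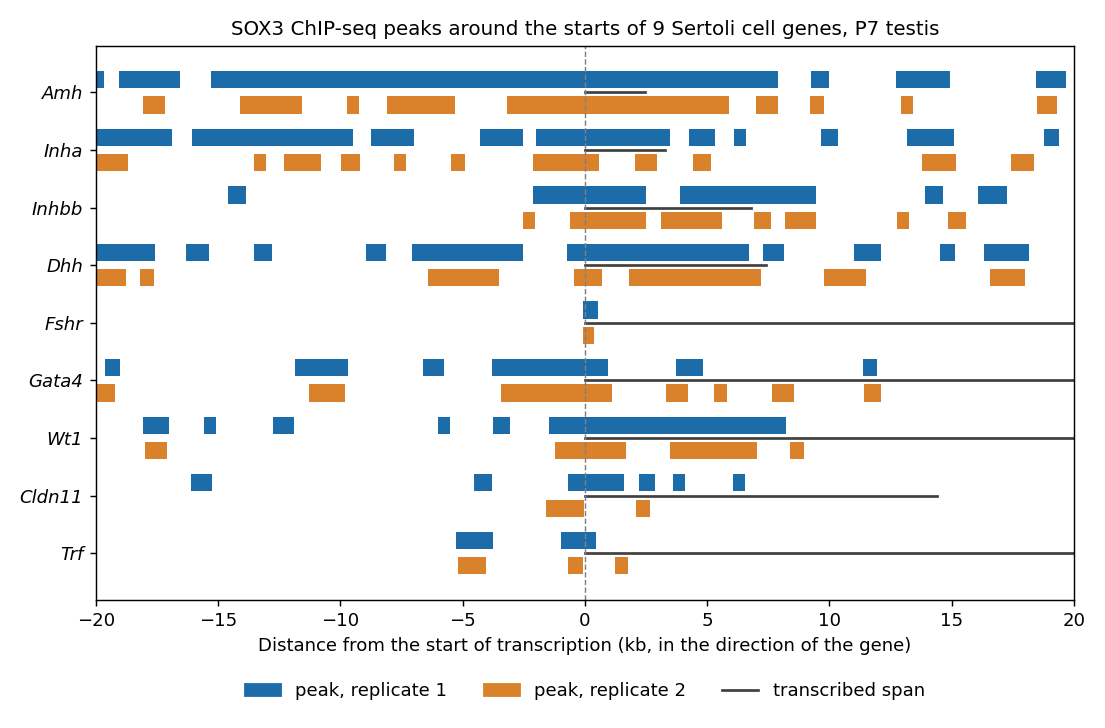
SOX3 ChIP-seq peaks (bars, replicate 1 above and replicate 2 below) within 20 kb of the start of each gene, by distance from the first TSS in kb, with the transcribed span as a dark line. A bar meets the 0 line at 9 genes in replicate 1 and at 7 in replicate 2, and the bars at Amh, Wt1 and Dhh are far longer than those at Fshr and Trf.

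The promoter sequences are shown for 3 genes that differ in base composition, since promoter peaks in both lists went with the CpG content of the promoter. Promoter windows of 300 bases (250 before and 50 after a TSS, RefSeq, GRCm38.p6) were available for 19528 of the 26180 genes and for 5 of the 9, which were Inha, Inhbb, Dhh, Fshr and Cldn11. The 4 unmatched genes were Amh, Gata4, Wt1 and Trf. The 250 bases before the TSS are printed 5′ to 3′ in the direction of the gene, and capitals mark CpG dinucleotides. The windows are chr1:119422249-119422498 on the minus strand for Inhbb, chr17:89200676-89200925 on the minus strand for Fshr and chr1:75507359-75507608 on the plus strand for Inha.
Inhbb: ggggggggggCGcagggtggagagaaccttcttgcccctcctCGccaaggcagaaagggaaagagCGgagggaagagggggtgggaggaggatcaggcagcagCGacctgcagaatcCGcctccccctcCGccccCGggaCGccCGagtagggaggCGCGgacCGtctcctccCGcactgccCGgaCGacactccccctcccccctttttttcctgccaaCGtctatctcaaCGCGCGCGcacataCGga
Fshr: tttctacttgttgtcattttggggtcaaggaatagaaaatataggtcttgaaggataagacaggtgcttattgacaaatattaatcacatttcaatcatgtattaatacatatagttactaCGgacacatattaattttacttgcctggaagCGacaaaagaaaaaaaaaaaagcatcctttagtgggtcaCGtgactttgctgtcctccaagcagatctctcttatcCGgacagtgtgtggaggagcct
Inha: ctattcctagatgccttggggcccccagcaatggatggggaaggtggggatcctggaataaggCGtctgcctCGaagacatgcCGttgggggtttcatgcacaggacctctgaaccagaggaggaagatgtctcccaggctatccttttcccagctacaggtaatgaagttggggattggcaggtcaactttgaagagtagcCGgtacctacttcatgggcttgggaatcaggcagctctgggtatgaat

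Inhbb had 21 CpG dinucleotides in the printed bases, Fshr had 4 and Inha had 4. Over the 300-base windows the ratio of observed to expected CpG was 0.74 at Inhbb and 0.73 at Cldn11, against 0.50 at Fshr, 0.44 at Dhh and 0.22 at Inha. The median over 23307 promoter windows was 0.55. The GC content was 64.3% at Inhbb, 66.3% at Cldn11, 61.7% at Dhh, 55.3% at Inha and 40.7% at Fshr. Genes were classed as CpG-rich (ratio of at least 0.75 with at least 55% GC), CpG-poor (ratio under 0.48) or intermediate, and 92.5%, 19.3% and 75.5% of them, respectively, had a promoter peak in both replicates. Inhbb, Cldn11 and Fshr fell in the intermediate class, and Inha and Dhh in the CpG-poor class. Both CpG-poor genes had a promoter peak in both replicates. The Inha class, however, rests on a window that does not hold its first TSS. At Dhh in replicate 2 the peak over the TSS had a q score of 48.8, and the stronger peak lay over the body and 3′ part of the gene.

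The Inha window lies inside the gene. It precedes the second annotated TSS, 160 of its 250 printed bases are coding sequence of the longer transcript and the other 90 are intron. Inha also held the one match to the words searched, which were ACAAAG and ACAATG (found in SOX binding sites), AGGTCA (a core element bound by nuclear receptors) and AGATAA (found in GATA sites), on both strands. AGGTCA began 69 bases before that TSS on the strand of the gene, and 14.8% of all windows held this word. None of the 5 windows held ACAAAG or ACAATG, of which at least one occurred in 26.1% of all windows. Within these 300 bases the letters were not present, which says nothing of SOX3 elsewhere under the peaks.

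Amh, Inha, Inhbb and Dhh encode secreted signals, and Amh carried the strongest promoter peak of the 9 in replicate 1. Anti-Müllerian hormone, the product of Amh, makes the Müllerian ducts of the male fetus regress. The gene lies on chromosome 10 (80805240 to 80807679, plus strand, mm10), is 2440 bp long, and sat whole inside its promoter peak in both replicates. In replicate 1 the peak spanned chr10:80789960-80813152, or 23193 bp, with a q score of 567.7, a log2 ratio of ChIP over input of 5.66 and percentile 96.9. In replicate 2 it spanned chr10:80802062-80811144, or 9083 bp, with a q score of 112.5, a log2 ratio of 3.49 and percentile 71.1. The peak of replicate 2 lay entirely within that of replicate 1 and made up 39.2% of it.

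The wide Amh peak of replicate 1 was shared with other genes. It came within 2 kb of the TSSs of Sf3a2 (a splicing factor subunit), Plekhj1 and Jsrp1. In replicate 2, Sf3a2 and Plekhj1 had a peak of their own, 2763 bp wide with a q score of 175.4, and the Amh peak reached no other TSS. The score of the replicate 1 peak therefore belongs to 4 genes, and that of the replicate 2 peak to Amh alone. The 2 genes with the most similar pair of percentiles over the 2 replicates, among 13656 compared, were Caprin2 (percentiles 96.5 and 72.1) and Chmp2a (96.3 and 72.3).

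Inha and Inhbb encode the α subunit of inhibin and the βB subunit of inhibin B and activin B. Inhibin B is the Sertoli cell hormone that lowers FSH output by the pituitary. At Inha (chromosome 1, 75507077 to 75510366, plus strand) the peak of replicate 1 ran over the whole gene, chr1:75505074-75510564, with a q score of 283.3, a log2 ratio of 3.97 and percentile 75.6. Replicate 2 had 2 peaks there. The stronger, chr1:75504972-75507672, covered both annotated TSSs with a q score of 86.3, a log2 ratio of 3.22 and percentile 55.03, and the weaker, 928 bp wide over the 3′ part of the gene, had a q score of 42.1. The TSS side was also within 2 kb of a TSS of Obsl1, which encodes a cytoskeletal adaptor, in both replicates.

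At Inhbb (chromosome 1, 119415463 to 119422248, minus strand) the promoter peaks were chr1:119419762-119424352 and chr1:119419756-119422860. Their q scores were 183.4 and 77.3, their log2 ratios 3.72 and 2.73, and their percentiles 54.9 and 48.6. A second peak lay further into the gene in each replicate, in replicate 1 5550 bp wide and reaching past the 3′ end with a q score of 77.4, and in replicate 2 2485 bp wide with a q score of 58.5. Inhbb was thus near the middle of all genes with a promoter peak in both lists.

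Dhh encodes Desert hedgehog, the Hedgehog ligand by which Sertoli cells act on Leydig and peritubular cells. It lies on chromosome 15 (98891155 to 98898540, minus strand). In replicate 1 a single peak, chr15:98891830-98899268, covered almost the entire gene with a q score of 224.0, a log2 ratio of 4.48 and percentile 64.4. In replicate 2 the same stretch held 2 peaks. The one over the TSS, chr15:98897828-98898984, had a q score of 48.8, while the stronger, chr15:98891354-98896726, had a q score of 116.3 and percentile 73.3 and came to 1814 bp from the TSS. The percentile of Dhh in replicate 2 therefore rests on a peak over the body and 3′ part of the gene that is just inside the 2 kb limit.

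Fshr had the weakest promoter peak of the 9 in both replicates. It encodes the receptor for FSH, lies on chromosome 17 (88984952 to 89200675, minus strand) and is the longest of the 9 genes (215724 bp). The peak over its TSS was chr17:89200158-89200733 in replicate 1 and chr17:89200294-89200768 in replicate 2. The widths were 576 and 475 bp, the q scores 42.2 and 35.2, the log2 ratios 2.88 and 2.29, and the percentiles 10.7 and 8.46. The 2 peaks shared 440 bp. Scores this low were common: 850 other peaks of replicate 1 and 255 of replicate 2 carried exactly the same p score, q score and log2 ratio.

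In the 315.7 kb from 50 kb before to 50 kb after Fshr there were 2 other peaks in each list, and both recurred. One was intronic, 55.4 kb from the TSS in replicate 1 (q score 71.6) and 55.5 kb in replicate 2 (q score 30.1). The other lay beyond the 3′ end, with q scores of 49.6 and 58.5. Of the 9 genes, Fshr was alone in that each of its peaks was found in the other replicate at 50% coverage.

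Gata4 and Wt1 encode transcription factors that act in the somatic cells of the gonad, a zinc-finger GATA factor and the Wilms tumour zinc-finger protein. The Gata4 promoter peaks had nearly the same extent in both replicates, chr14:63244314-63249088 and chr14:63244149-63248720, with 4407 bp in common. Gata4 lies on chromosome 14 (63198914 to 63245271, minus strand). The q scores were 278.0 and 123.6, the log2 ratios 3.66 and 2.63, and the percentiles 74.7 and 76.7. Gata4 thus ranked alike in both lists, and it had the highest q score of the 9 in replicate 2. It also had the most gene body peaks, 5 in replicate 1 and 6 in replicate 2, with q scores from 34.6 to 60.7 and from 33.6 to 51.3. Most of these lay at different positions in the 2 lists. An intronic peak 11.7 and 11.8 kb from the TSS (q scores 34.6 and 36.0) was found in the other list in both directions. A replicate 2 peak 3.8 kb from the TSS was found in replicate 1, but the replicate 1 peak there was not found in replicate 2. The rest were not found in the other list.

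At Wt1 (chromosome 2, 105126529 to 105173614, plus strand) the peak of replicate 1 ran 9671 bp from the promoter into the gene, chr2:105125069-105134739, with a q score of 270.9, a log2 ratio of 4.17 and percentile 73.6. In replicate 2 this interval held a promoter peak, chr2:105125308-105128198, with a q score of 76.7, a log2 ratio of 3.51 and percentile 48.2. It was followed inside the gene by chr2:105130021-105133585, which had a higher q score of 98.9. The peak over the TSS was also within 2 kb of a TSS of Wt1os, an RNA transcribed from the opposite strand of the Wt1 promoter.

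Cldn11 encodes claudin 11, a tight junction protein of the blood-testis barrier. Its promoter peaks met only in part. Cldn11 lies on chromosome 3 (31149920 to 31164326, plus strand). The peak of replicate 1, chr3:31149231-31151509, covered the TSS with a q score of 230.1, a log2 ratio of 5.14 and percentile 65.8. The peak of replicate 2, chr3:31148346-31149894, ended 26 bp short of the TSS and had a q score of 59.4, a log2 ratio of 2.42 and percentile 34.7. The shared 664 bp were 29.1% of the first peak and 42.9% of the second, so that neither was found in the other replicate at 50% coverage, the only such case among the strongest promoter peaks of the 9 genes. A small peak just outside the promoter, 2200 bp from the TSS in replicate 1 and 2084 bp in replicate 2, recurred with q scores of 41.7 and 36.8.

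Trf encodes transferrin, which carries iron to germ cells behind the barrier. It lies on chromosome 9 (103208876 to 103230286, minus strand). The peak of replicate 1, chr9:103229841-103231264, covered the TSS with a q score of 145.2, a log2 ratio of 4.56 and percentile 44.9. Replicate 2 had 2 weak promoter peaks, one 65 bp upstream of the TSS with a q score of 39.5 (percentile 13.6) and one 1246 bp inside the gene with a q score of 33.9. Trf was second to Fshr at the weak end of the list in both replicates.

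Over the 9 genes the q score of the strongest promoter peak ranged from 42.2 to 567.7 in replicate 1, with a median of 230.1 against 165.4 for all genes with a promoter peak. In replicate 2 it ranged from 35.2 to 123.6, with a median of 77.3 against 78.8. In replicate 1, 7 of 9 genes were above the median of all such genes, and in replicate 2, 4 of 9 were. These 4 were Amh, Inha, Dhh and Gata4. At a q score above 60, 8 genes kept a promoter peak in replicate 1, 6 in replicate 2 and 6 in both, beside 35.2% of all genes in both. Fshr, Cldn11 and Trf were the genes lost.

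**Figure D2:**
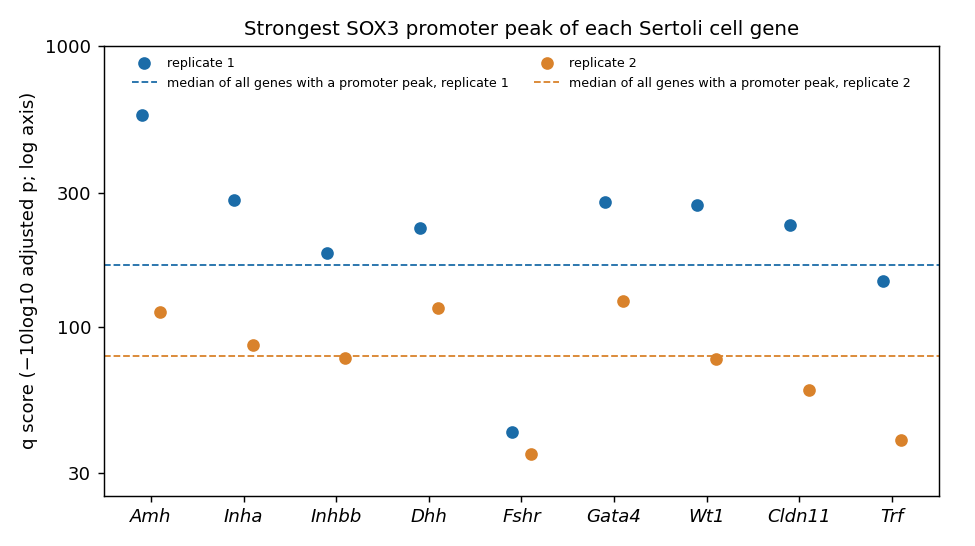
The q score of the strongest promoter peak of each gene (points, log axis, 1 point per replicate) with the median over all genes that have a promoter peak in that replicate (dashed lines, 165.4 and 78.8). Amh (567.7) and Gata4 (123.6) are highest in replicates 1 and 2, and Fshr is lowest in both.

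Gene body peaks, outside 2 kb of the gene's own TSSs, were found at 6 of the 9 genes in replicate 1 and at 5 in replicate 2, and the 5 in both were Inhbb, Fshr, Gata4, Wt1 and Cldn11. Over all genes 35.7% had a gene body peak in replicate 1, 27.9% in replicate 2 and 22.3% in both. Amh (2440 bp) and Inha (3290 bp) had little room for one, since most of each gene lies within 2 kb of a TSS. The 9 genes held 12 gene body peaks in replicate 1 and 11 in replicate 2, of which 9 and 9 had their midpoint in an intron. Their median q scores were 53.6 and 36.8. Of the gene body peaks, 3 of 12 in replicate 1 and 6 of 11 in replicate 2 were found in the other list.

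Peaks in the flanks were numerous. Within 50 kb of the 9 genes, outside promoter and gene body, there were 109 peaks in replicate 1 and 94 in replicate 2, and each gene had at least 1 in both. Over all genes 69.7% had a flanking peak in both replicates. The median over the 9 genes was 11 flanking peaks in each replicate, against 3 and 2 over all genes. Counting every peak from 50 kb before to 50 kb after the gene, the 9 genes had a median of 10.3 and 12.3 peaks per 100 kb, against 3.72 and 2.56 for all genes. The range was wide: Amh had 20.5 and 22.5 peaks per 100 kb, Inha had 20.3 and 22.3, and Fshr had 0.95 in both.

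**Figure D3:**
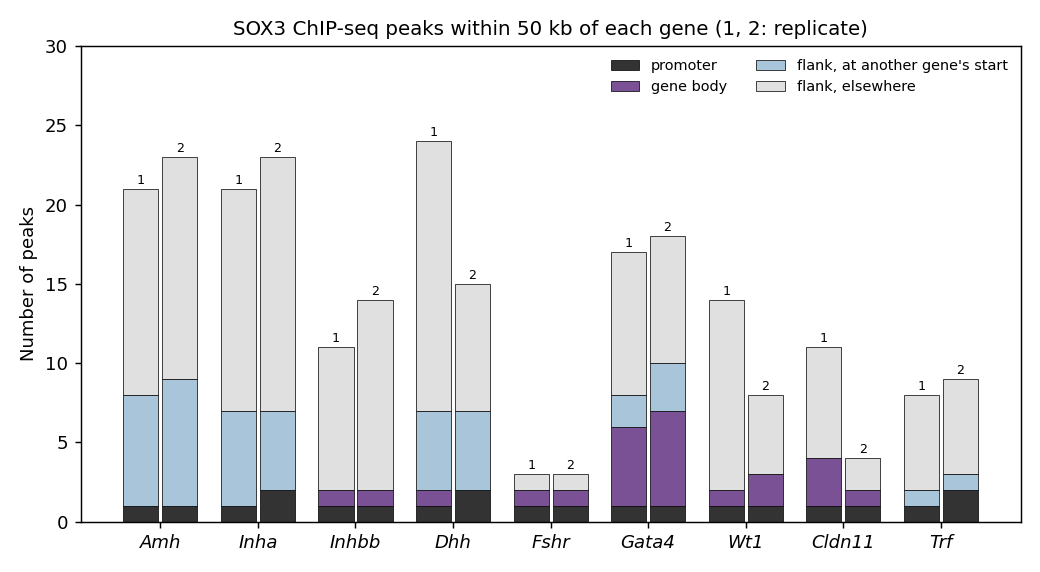
Number of SOX3 ChIP-seq peaks within 50 kb of each gene (stacked bars, left replicate 1 and right replicate 2), split into promoter, gene body, flanking peaks within 2 kb of another gene's TSS and other flanking peaks. Totals run from 3 peaks at Fshr in each replicate to 24 at Dhh in replicate 1, and Gata4 has the most gene body peaks (5 and 6).

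The flanks of the 9 genes differed in how near other genes lay. Of the flanking peaks, 21 of 109 in replicate 1 and 22 of 94 in replicate 2 were within 2 kb of another gene's TSS, and Inhbb, Fshr, Wt1 and Cldn11 had none of these in either replicate. The peaks at other genes' TSSs were the stronger, with median q scores of 172.5 and 81.4 against 43.3 and 40.9 for the rest. Of the flanking peaks of replicate 1, 33 were found in replicate 2, 14 of the 21 at a TSS and 19 of the 88 elsewhere. Of those of replicate 2, 61 of 94 were found in replicate 1.

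Some of the distal peaks away from any other TSS overlapped between the replicates. The strongest at Gata4 had its midpoint 10.8 kb upstream of the TSS in replicate 1 and 10.5 kb upstream in replicate 2, with q scores of 151.4 and 77.8. At Inhbb the strongest lay beyond the 3′ end, 31.9 and 33.0 kb downstream of the TSS, with q scores of 137.4 and 93.7, and here the replicate 2 peak was found in replicate 1 at 50% coverage but the wider replicate 1 peak was not found in replicate 2. At Wt1 the strongest lay 17.5 kb upstream of the TSS in both, with q scores of 92.5 and 68.9. For Cldn11, which had 7 and 2 flanking peaks, none was found in the other replicate.

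Genes linked to the 9 were compared by the same counts, from lists chosen by name. Of 16 genes for receptors, partner subunits and downstream proteins, 16 had a promoter peak in replicate 1 and 13 in replicate 2. The shares over all genes were 62.7% and 54.7%. The highest q score in replicate 1 was at Ptch1, the Hedgehog receptor (395.8 in replicate 1 and 182.1 in replicate 2). Amhr2, the type II receptor for anti-Müllerian hormone, had 109.0 and 45.6. The 3 with a peak in replicate 1 alone were Inhba (73.4), the βA subunit of activin and inhibin A, Tgfbr3 (130.2), the inhibin co-receptor betaglycan, and Hhip (110.3), a Hedgehog-binding protein. Zfpm2, the cofactor FOG2 of GATA4, had 144.2 and 43.2, and Tfrc, the transferrin receptor, had 284.8 and 139.4. Amhr2, Zfpm2 and Tfrc were named after their values were seen.

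Of 22 other Sertoli cell genes, 21 had a promoter peak in replicate 1 and 16 in replicate 2, and these 16 had one in both. The shares over all genes were 62.7%, 54.7% and 52.2%. The highest q score in replicate 1 was at Aard (770.4, with 147.7 in replicate 2). There were 5 with a peak in replicate 1 alone, among them Cst12 (133.6), Cst9 (35.6) and Ptgds (67.8). Rhox5 had none in either list and was named after its values were seen. No test of a difference between lists was made, since the genes were chosen by name.

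Genes of other testis cell types also had promoter peaks. Of 8 Leydig cell genes, 5 had one in replicate 1, 5 in replicate 2 and 4 in both, and none kept it in both at a q score above 60. The highest in replicate 1 was Hsd17b3 (88.4 and 35.4), which makes testosterone. Insl3 had one in replicate 1 alone (35.7) and Lhcgr in replicate 2 alone (31.2). Of 15 uSPG genes, 13 had one in replicate 1, 11 in replicate 2 and 10 in both (86.7%, 73.3% and 66.7%). The highest in replicate 1 was Foxo1 (434.7 and 123.2). Lin28a (53.0), Nanos3 (42.1) and Cdh1 (94.3) had one in replicate 1 alone, and Upp1 (30.1) in replicate 2 alone.

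The strength of promoter peaks, as the median percentile of the list members that had one, was 65.8 and 48.6 for the 9 Sertoli cell genes in replicates 1 and 2. It was 54.1 and 74.9 for the other Sertoli cell genes, 70.2 and 67.8 for the linked genes, 20.4 and 22.1 for the Leydig cell genes and 38.7 and 37.9 for the uSPG genes. The order of the first 3 lists differed between the replicates, while Leydig cell genes were lowest in both.

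**Figure D4:**
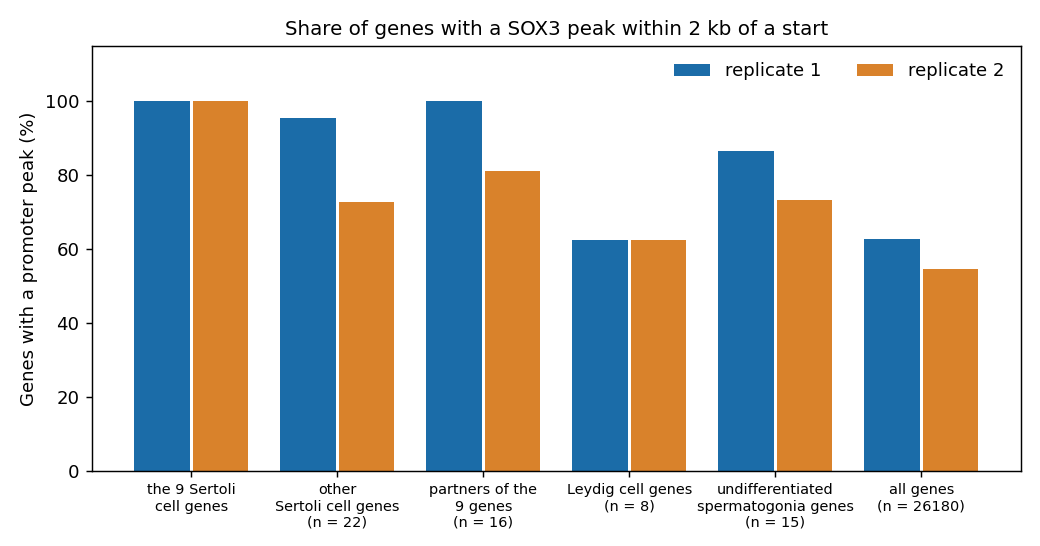
Share of genes with a SOX3 peak within 2 kb of a TSS (bars from 0%, 1 per replicate) for the 9 Sertoli cell genes, 4 other gene lists and all 26180 genes. The 9 genes are at 100% in both replicates, and all genes at 62.7% and 54.7%.

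The ChIP-nexus lists held 110 and 18 peaks on mouse chromosomes, and none lay within 50 kb of any of the 9 genes. The nearest were in replicate 1, 226.2 kb from the TSS of Trf and 420.4 kb from that of Wt1. No ChIP-seq peak at these genes therefore had a ChIP-nexus peak to be compared with. The study's reporting summary gives far fewer unique reads for the SOX3 ChIP-nexus libraries than for the SOX3 ChIP-seq libraries. The share of all genes with a ChIP-nexus peak within 50 kb was not computed. With lists this short, the absence cannot be read as a trait of the 9 genes.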

How the data were processed

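SOX3 ChIP-seq and ChIP-nexus peak lists of P7 testis were used, 2 replicates each, with groups taken from the sample labels. According to the study's methods, the authors aligned reads to mm10 with Novoalign, placed reads that fit several positions at random, removed duplicates with Picard and called peaks per replicate with USeq, keeping scores above 30. The ChIP-seq lists came without column names. The deposited p and q columns were read as scores (−10log10 of the p-value and of the adjusted p-value), and the deposited log2 column as the ratio of ChIP over input, from the layout and values. The deposited ChIP-nexus lists are in MACS2 (2.1.1) format, with a ratio (fold enrichment) and −log10 p and q by the authors, and only their positions were used here. The submitters' processing notes name the same aligner, duplicate removal and build. The study's methods include a filter against blacklisted regions, without saying whether the deposited lists had passed it, and none was applied here. The lists hold no reads, so depth could not be read from them and no interval was computed. The study's reporting summary gives fewer unique reads for SOX3 ChIP-seq replicate 1 than for replicate 2.

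TSSs were those of 45754 curated RefSeq transcripts of 26180 genes (GRCm38.p6, the assembly of mm10, annotation release 108.20200622). A promoter peak lay within 2 kb of a TSS, a gene body peak overlapped the curated transcripts outside that window, and a flanking peak lay within 50 kb of them. A peak was found in the other replicate if 1 peak there covered 50% of it. Overlap code (Python 3.11.15, pandas 2.3.3) was tested on simulated data and checked against bedtools 2.31.1. Named genes were the 9 genes, genes sharing their promoter peaks, the 2 genes most like the one with the highest mean percentile, and in each other list the gene with the highest q score in replicate 1 and up to 4 genes with a promoter peak in 1 replicate alone. The genes and lists were chosen with earlier results of these data known. Alternatives covered the q score, windows, annotation, overlap and each replicate left out.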

Additional observations from a re-analysis of the deposited data

How the results depend on the processing

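All 9 genes kept a promoter peak in both replicates with a window of 1 or 5 kb, with predicted RefSeq transcripts, with the GENCODE M21 annotation, with replicate 1 reduced to as many peaks as replicate 2, when the 2 peaks had to overlap, and with either replicate left out (9 to 9). GENCODE, the reduced list, TSS coverage and the whole gene record were chosen after the data were seen. With peaks covered to 50% by 1 peak of the other replicate, 4 genes were left in replicate 1 (Inhbb, Dhh, Fshr and Gata4), 8 in replicate 2 and 4 in both, and at the other 5 genes the overlap was 29.1% to 47.3% of the replicate 1 peak. Of all peaks, 25.1% in replicate 1 and 48.4% in replicate 2 were so covered. Gene body counts at a q score above 60 were 3 in replicate 1, 1 in replicate 2 and 0 in both, and 9 and 9 in replicate 2 and in both when promoter peaks reaching into the gene were counted. They ran from 5 to 6 with a replicate left out. Shares over all genes were not computed for the coverage setting or for these gene body settings, so whether the counts are low or usual is not known. Flanking peaks fell to 42 and 23, with 15 found, at a q score above 60, and to 26 and 20, with 9 found, within 10 kb. Without peaks at other genes' TSSs 19 were found in replicate 2, and at an overlap of 1 bp 52 were. The other 42 of 57 recomputed counts stayed within 1.5 times the count reported. No paired analysis was possible because the lists hold peaks and not reads, and no test was made. Depth is unknown from the lists.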

Other observations

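Gata4 has 2 predicted RefSeq starts upstream of its curated TSS, 25862 and 26441 bp away. A peak within 2 kb of both was present in each replicate, chr14:63270366-63272299 with a q score of 142.1 in replicate 1 and chr14:63271062-63272451 with a q score of 65.7 in replicate 2. No curated TSS lay within 2 kb of it, so it was counted as a flanking peak.

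Scores in these lists took few distinct values, 2388 combinations of p score, q score and log2 ratio in the 58351 peaks of replicate 1 and 1719 in the 38832 of replicate 2. In replicate 2 the promoter peaks of Gata4 and of Sox8, another Sertoli cell gene named here after its values were seen, had the same q score of 123.6.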
